A study of Mus musculus with 41 samples.

Results

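The interferon regulatory factors (IRFs) and the signal transducers and activators of transcription (STATs) were followed across 3 assays of RHOX10, an X-linked homeobox transcription factor of the male germ line. The 9 genes described were taken by name, 6 IRF genes (Irf1, Irf2, Irf3, Irf5, Irf7 and Irf9) and 3 STAT genes (Stat2, Stat3 and Stat6), of 55536 genes in the count tables. They were chosen by earlier results of the induction time course, in which interferon-response genes were higher at 8 h in the cells carrying Rhox10. Values of that time course are therefore a description of these genes. Counts of them past a threshold are printed once, beside the share of all genes past it, and are no test of them.

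RNA-seq compared OCT4-eGFP+ germ cells sorted from testes of C57BL/6 mice labelled wild-type or Rhox10-null, with 4 libraries per genotype and the testes of 3 individuals pooled in each. The ages of these mice were not given in the sources used here. In iSLAM-seq, germline stem (GS) cells, a culture of spermatogonia from P0-P1 testes, carried an shRNA against their own Rhox10 in every library, the controls included. They also carried either Rhox10-ERT2-mCherry, a fusion that 4-hydroxytamoxifen activates (called Rhox10 below), or an empty ERT2-mCherry vector (called Ctrl). Cells were collected at 0, 0.5, 1, 2, 4 and 8 h of 4-hydroxytamoxifen, with 2 libraries per vector and time and 24 together. CUT&Tag, an antibody-guided map of protein on chromatin, followed HA-tagged RHOX10 in GS cells that carried the same kind of knockdown, and its peaks were merged over 3 libraries.

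Both families relay cytokine and infection signals to the nucleus. Type I interferon acts through receptor-bound Janus kinases on a complex that includes STAT2 and IRF9 and binds the interferon-stimulated response element (ISRE). Other STATs bind the gamma-activated site (GAS) as dimers: STAT3 downstream of the gp130 receptors for LIF and interleukin-6, STAT6 downstream of interleukin-4. IRF3 and IRF7 are phosphorylated when foreign nucleic acid is sensed and switch on interferon genes, IRF5 acts below Toll-like receptors, and IRF1 and IRF2 bind related sites with largely opposing effects. In the testis, STAT3 signalling has been linked to the differentiation of spermatogonia.

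RNA-seq libraries held 6602089 to 8278887 counts and iSLAM-seq libraries 9419615 to 12645845. All 9 genes had counts in both assays. Levels are in CPM, counts scaled to a common library size by TMM. The level of Rhox10 itself was 0.810 ± 0.522 CPM in wild-type libraries and 0.920 ± 0.346 CPM in those labelled null (mean ± SD, n = 4 each; exact permutation test, two-sided, p = 0.657), so its count does not check those labels. In iSLAM-seq, Rhox10 was 0.202 to 2.42 CPM in the 12 Ctrl libraries and 34.05 to 46.7 CPM in the 12 Rhox10 libraries, those at 0 h included. The 2 Ctrl libraries at 0.5 h differed far more than other pairs, with a chi-square per degree of freedom of 30.02 against at most 4.69 elsewhere in iSLAM-seq. The labels call the iSLAM-seq replicates biological without saying what was separate, so p-values measure only the spread between these libraries.

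In cultured GS cells the most abundant of the 9 was Stat3, followed by Irf1. Over the 12 Ctrl libraries the median level was 513 CPM for Stat3 and 208 CPM for Irf1, whose ranges did not overlap each other or those of the other 7. Irf3 followed at 56.5 CPM and Irf9 at 47.1 CPM, with ranges that overlapped. Irf2 had a median of 31.5 CPM, Stat2 of 19.96, Irf7 of 19.6, Stat6 of 8.76 and Irf5 of 6.91 CPM. The ranges of Irf2 and Stat2 overlapped, as did those of Stat2 and Irf7 and those of Stat6 and Irf5. The 3′ kit reads transcript ends, so these levels were not divided by length.

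After 8 h of 4-hydroxytamoxifen, the log2 difference of Rhox10 minus Ctrl was largest for Stat2, Irf7, Irf9 and Stat6. Each Rhox10 library was also above each Ctrl library at 8 h for Irf5 and Irf3, by smaller differences. Within Rhox10 cells, Stat2, Irf9 and Irf7 were higher at 8 h than at 0 h, while Stat6 was lower at 8 h within Ctrl cells. Irf1 was lower in Rhox10 cells from 0 to 2 h and close to Ctrl from 4 h on. Irf2 was higher at 8 h than at 0 h in both vectors. The plot of levels by time shows every library.

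**Figure D1:**
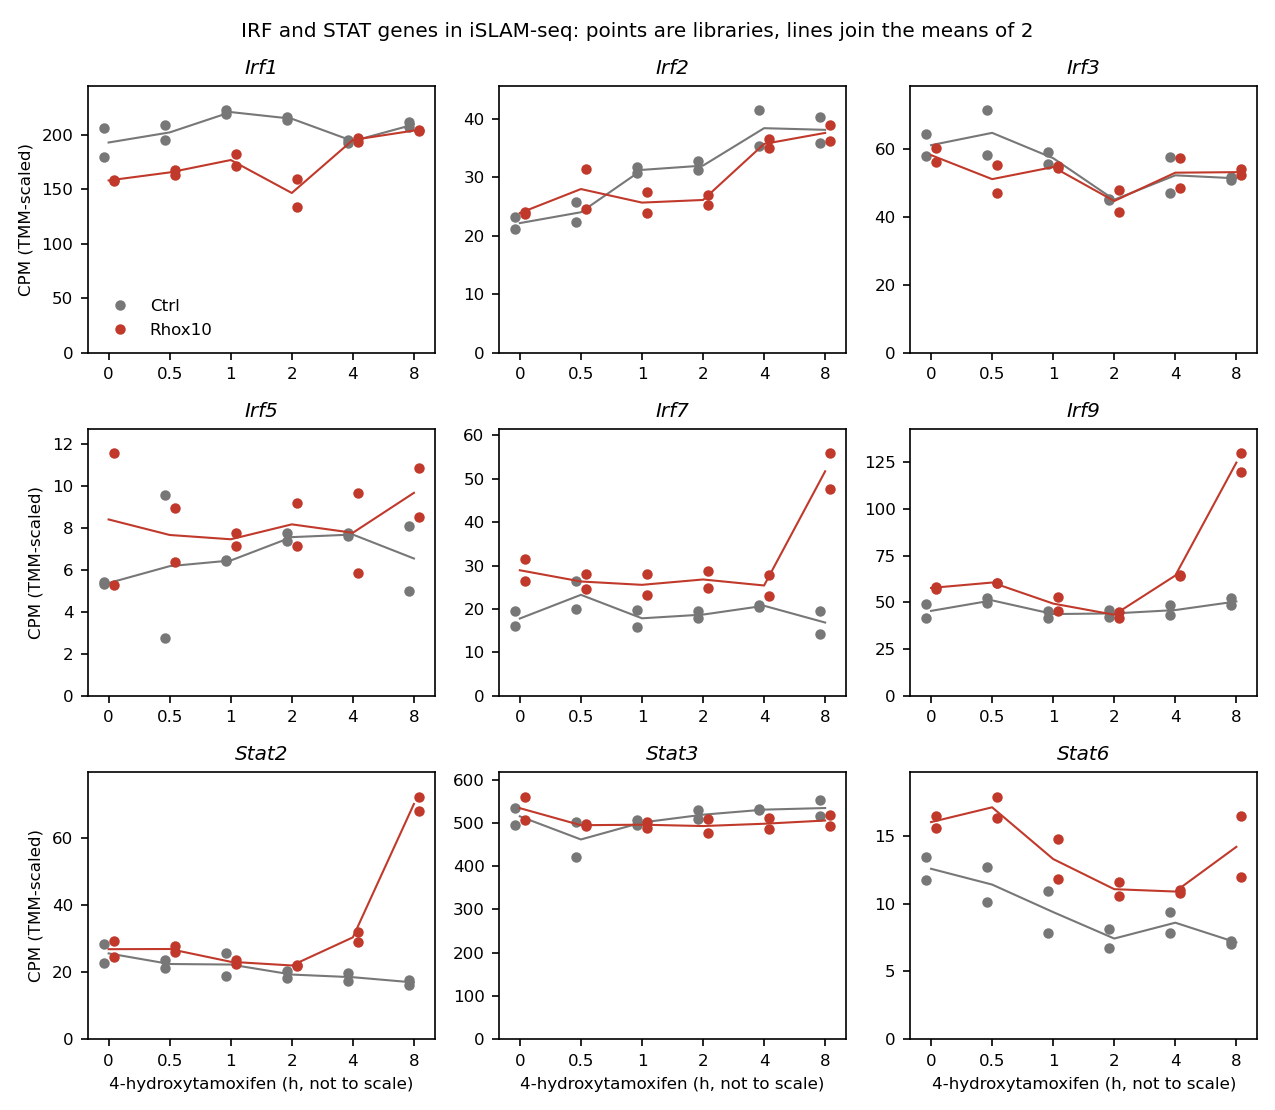
Level in CPM (linear axes from 0) against hours of 4-hydroxytamoxifen for the 9 genes; points are the 2 libraries of each vector and time, lines join their means. Stat2, Irf7 and Irf9 in Rhox10 cells stand apart at 8 h, with both libraries above all 12 Ctrl libraries.

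Stat2, the STAT specific to type I and III interferon signalling, started at 24.5 and 29.2 CPM in the Rhox10 libraries of 0 h. It was 21.8 and 22.2 CPM in those of 2 h, 31.9 and 28.9 CPM in those of 4 h, and 68.0 and 72.4 CPM in those of 8 h. Ctrl libraries held 22.7 and 28.4 CPM (0 h), 18.3 and 20.3 CPM (2 h), 19.7 and 17.3 CPM (4 h), and 16.1 and 17.7 CPM (8 h). The vectors overlapped at 0 and 1 h and were apart at 0.5, 2, 4 and 8 h, with a gap that widened from both sides between 2 and 8 h. The log2 difference between the vectors started at 0.07 ± 0.16 (SE), was 0.19 ± 0.16 by 2 h and 0.72 ± 0.16 by 4 h, and reached 2.05 ± 0.16 by 8 h. Within Rhox10 cells the change from 0 to 8 h was 1.39 ± 0.15 on the log2 scale, and within Ctrl it was -0.60 ± 0.16.

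Irf9, the DNA-binding partner of STAT2, was apart between the vectors already at 0 h. Rhox10 libraries held 58.1 and 57.4 CPM (0 h), 45.1 and 41.7 CPM (2 h), 64.0 and 64.8 CPM (4 h), and 120.0 and 129.7 CPM (8 h). Ctrl libraries stayed between 41.8 and 52.3 CPM at all 6 times. The log2 difference started at 0.35 ± 0.11 (SE), was -0.02 ± 0.11 by 2 h and 0.49 ± 0.11 by 4 h, and reached 1.30 ± 0.11 by 8 h. Within Rhox10 cells Irf9 changed by 1.11 ± 0.11 from 0 to 8 h, and within Ctrl by 0.15 ± 0.11.

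Irf7, which amplifies interferon production, stood higher in Rhox10 cells at 0 h. Its Rhox10 libraries held 31.4 and 26.4 CPM at 0 h against 16.0 and 19.6 CPM in Ctrl. At 0.5 h the vectors overlapped, with a log2 difference of 0.18 ± 0.19 (SE), and at 1 and 2 h the difference was 0.52 ± 0.19. Irf7 was 22.9 and 27.9 CPM at 4 h and 47.6 and 55.8 CPM at 8 h in Rhox10 cells. Ctrl libraries held 20.5 and 21.0 CPM at 4 h and 19.6 and 14.1 CPM at 8 h. Unlike that of Stat2, the difference of Irf7 at 4 h (0.29 ± 0.19) was no larger than that at 0 h (0.70 ± 0.19). At 8 h it was 1.61 ± 0.19 on the log2 scale. Within Rhox10 cells the change from 0 to 8 h was 0.84 ± 0.18, and within Ctrl -0.07 ± 0.19.

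For Stat6, the interleukin-4 STAT, Ctrl libraries went from 13.4 and 11.7 CPM at 0 h to 7.24 and 7.02 CPM at 8 h, while Rhox10 libraries went from 16.5 and 15.6 to 11.9 and 16.4 CPM. Its difference at 8 h was 0.99 ± 0.22 on the log2 scale, yet from 0 to 8 h Ctrl cells changed by -0.82 ± 0.22 and Rhox10 cells by -0.17 ± 0.21. Reads near the end of Stat6 may also come from Nab2, which overlaps it on the other strand. The ends of Irf5, Irf7 and Stat3 likewise overlap Tnpo3, Phrf1 and Stat5a on the other strand. The first bases of Irf9 overlap the end of Rnf31 on the same strand.

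**Figure D2:**
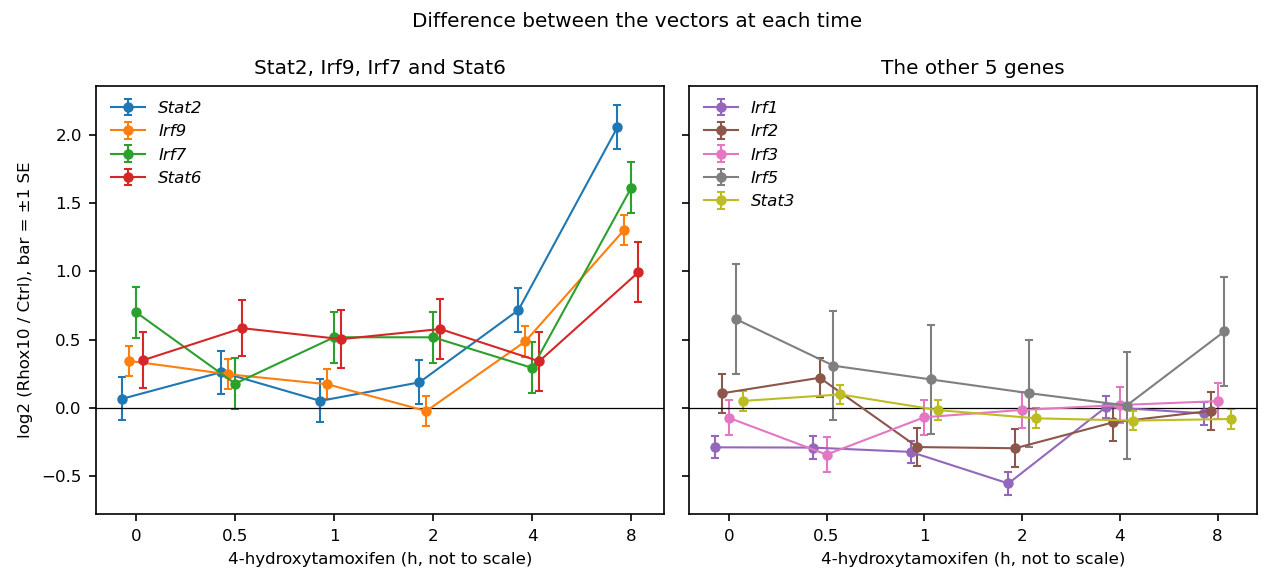
Log2 ratio of Rhox10 to Ctrl (vertical) at each time of 4-hydroxytamoxifen (horizontal, hours), with bars of 1 standard error; the left panel holds Stat2, Irf9, Irf7 and Stat6, the right panel the other 5. Stat2 reaches 2.05 at 8 h, while Irf1 is below 0 up to 2 h and close to 0 from 4 h.

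Irf1, an interferon-gamma and STAT target, held 159 and 157 CPM in Rhox10 libraries at 0 h against 179 and 206 in Ctrl, and 134 and 159 CPM at 2 h against 216 and 213 in Ctrl. At 8 h the Rhox10 libraries held 204 and 203 CPM and the Ctrl libraries 207 and 212. The log2 difference started at -0.29 ± 0.08 (SE), was -0.55 ± 0.08 by 2 h and 0.01 ± 0.08 by 4 h, and ended at -0.04 ± 0.08. Within Rhox10 cells Irf1 changed by 0.37 ± 0.08 from 0 to 8 h, and within Ctrl by 0.12 ± 0.08.

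Irf2, which competes with IRF1 for its sites, went from 23.2 and 21.1 CPM at 0 h to 40.3 and 35.9 CPM at 8 h in Ctrl, and from 24.1 and 23.7 to 39.0 and 36.2 CPM in Rhox10 cells. These changes were 0.78 ± 0.14 (SE) in Ctrl and 0.65 ± 0.14 in Rhox10 cells on the log2 scale. The 8 h libraries of the vectors overlapped. Stat3 stayed between 422 and 552 CPM in Ctrl and 477 and 561 CPM in Rhox10 libraries, Irf3 between 44.8 and 71.3 and between 41.4 and 60.3 CPM, and Irf5 between 2.77 and 9.59 and between 5.26 and 11.5 CPM. Their differences at 8 h were -0.08 ± 0.07, 0.05 ± 0.13 and 0.56 ± 0.40 on the log2 scale, the last with a wide error at these low levels.

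**Figure D3:**
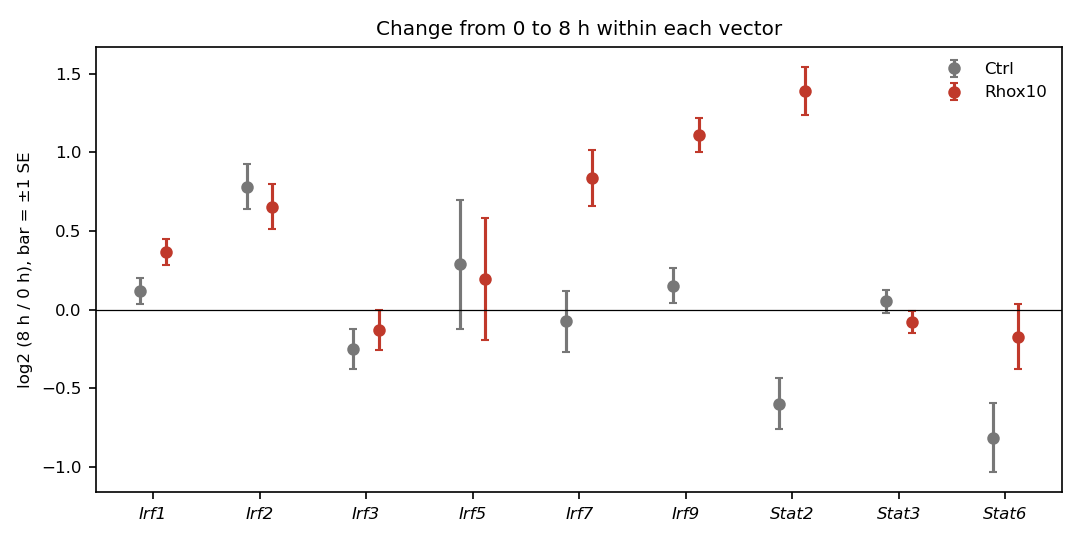
Log2 change from 0 to 8 h (vertical) within Ctrl and within Rhox10 cells for the 9 genes, with bars of 1 standard error. Within Rhox10 cells Stat2 is at 1.39, Irf9 at 1.11 and Irf7 at 0.84, within Ctrl cells Stat6 is at -0.82, and Irf2 is above 0 in both.

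The genes were chosen with this time course known, so nothing is read from the counts that follow. Counted over the 9 genes at an adjusted p under 0.05 (edgeR's quasi-likelihood test, Benjamini-Hochberg over the 20642 genes tested), 3 stood past the threshold at 0 h, Irf7 and Irf9 being higher in Rhox10 cells and Irf1 lower, beside 10.9% of all genes. Irf1 alone did at 0.5, 1 and 2 h, beside 14.5%, 9.91% and 10% of all genes. Stat2 and Irf9 did at 4 h, beside 12.2%, and Stat2, Irf7, Irf9 and Stat6 at 8 h, beside 16.8%. The calls at 4 h rest on Ctrl replicate 2 of that time, without which Stat2 (0.65) and Irf9 (0.43 on the log2 scale) no longer passed. The call of Irf9 at 0 h was kept in 2 of 24 fits that left out 1 library. That of Irf7 at 0 h was lost without replicate 1 of either vector at 0 h (0.55 and 0.56). The calls of Irf1 were lost at 0 h without Ctrl replicate 2 (-0.18) or either Rhox10 replicate (-0.30 and -0.28), at 0.5 h without either Rhox10 replicate (-0.32 and -0.28), and at 1 h without either Ctrl replicate (-0.30 and -0.33) or Rhox10 replicate 2 (-0.27). Stat6 at 8 h was not called without Rhox10 replicate 2 (0.76), and without Ctrl replicate 1 of 0.5 h Irf3 (-0.50), Irf5 (1.45) and Stat3 (0.21) were called at 0.5 h.

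For 8 h against 0 h, the log2 difference between the vectors was larger by 1.99 ± 0.22 (SE) for Stat2 and 0.96 ± 0.16 for Irf9, the 2 genes past the same threshold, beside 2.57% of all genes. It was larger by 0.91 ± 0.26 for Irf7 and 0.64 ± 0.30 for Stat6, which were not past it in the fit to all libraries. Irf7 was past it in 5 other settings (library totals, no filter, only the 0 and 8 h libraries, both Ctrl 0.5 h libraries removed, and DESeq2). Within Rhox10 cells 5 of the 9 were past it from 0 to 8 h, all higher (Stat2, Irf9, Irf7, Irf2 and Irf1), beside 7.18% of all genes. Irf7 was not past it without Rhox10 replicate 2 of 0 h (0.72) or of 8 h (0.73), nor Irf2 without Rhox10 replicate 2 of 0 h (0.65) or replicate 1 of 8 h (0.61). Within Ctrl 3 were past it, Irf2 higher and Stat2 and Stat6 lower, beside 6.52%. Stat6 was not past it without any 1 of the 4 Ctrl libraries of 0 and 8 h (-0.92 to -0.73), nor Stat2 without replicate 2 of 0 h (-0.44) or either library of 8 h (-0.56 and -0.67).

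Stat2, Irf9 and Irf7 had the widest ranges of group means and were matched with the genes most like them. Over the log2 CPM of the 24 libraries and 12060 genes, Stat2 was most like Ifit3b (Pearson's r = 0.946), Ifit3 (0.943) and Iigp1 (0.929), 3 interferon-induced genes. Irf9 was most like Ifi44 (0.934), Ifit3 (0.929) and Cmpk2 (0.918). Irf7 was most like Nupr1 (0.891), Iigp1 (0.881) and Usp18 (0.870). Among the 9 genes, Stat2 and Irf9 were the most alike (r = 0.916), then Irf7 and Irf9 (0.833) and Irf7 and Stat2 (0.818), while Irf1 and Stat6 ran most opposite (-0.560). All libraries share the 12 groups of the design, and the 2 Rhox10 libraries at 8 h weigh heavily in these values. The 9 genes were chosen with interferon-response genes of these same libraries known, so this likeness is a description and no test. Ifit3 and Ifit3b are near-identical copies whose reads may be split between them.

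Of all genes, the log2 difference of Rhox10 minus Ctrl moved up past the threshold from 0 to 8 h in 0.872% and down in 1.70% (median -0.02). Up and down give the sign of this change, not whether the vectors drew apart. The 28 interferon target genes overlap those that led to the choice of the 9, so their counts are a description too. The difference moved up past the threshold in 20 of them and down in 0 (median 1.78). Within Rhox10 cells 23 were higher at 8 h and 0 lower (median 1.83). Among 18 tested receptors and Janus kinases 0 passed by edgeR at an adjusted p, and 0 were higher and 4 lower at an unadjusted p under 0.05. Among 15 adaptors and kinases that activate IRFs the difference moved up for 1, Mavs, the mitochondrial adaptor of RNA sensing, by 0.95 ± 0.22. From 0 to 8 h Mavs changed by -0.71 ± 0.16 within Ctrl and by 0.24 ± 0.15 within Rhox10 cells, the latter not past the threshold. Among 20 negative regulators the difference moved up for Usp18, an interferon-induced brake on the interferon receptor, by 2.45 ± 0.24. It moved down for the phosphatase Ptpn1 (-0.48 ± 0.11) and for Socs5 (-0.52 ± 0.13). For Socs5 it went from -0.31 at 0 h to -0.84 at 8 h.

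Among 19 targets of STAT3 and STAT6, the difference moved up for 0 (1 at an unadjusted p under 0.05) and down for 4, by edgeR. Its change was -1.58 ± 0.21 for Junb, -1.08 ± 0.10 for the kinase Pim1, -0.90 ± 0.10 for Hif1a and -0.73 ± 0.10 for the survival factor Mcl1 on the log2 scale. Already at 0 h, 8 of the 19 were higher and 1 lower in Rhox10 cells (median 0.43), beside 6.56% and 4.32% of all genes. At 8 h 4 were higher and 4 lower (median -0.02), beside 8.06% and 8.79%. From 0 to 8 h 1 was higher and 6 lower within Ctrl, and 1 higher and 8 lower within Rhox10 cells. GS cells held few transcripts of blood cells. Summed over 13 macrophage and other leukocyte markers, of which 6 passed the filter, the level was 26.9 to 43.1 CPM in Ctrl and 25.2 to 39.7 CPM in Rhox10 libraries. The 22 germ cell markers summed to 3545 to 4234 CPM in Ctrl and 3139 to 3595 CPM in Rhox10 libraries. At 8 h Sertoli markers summed to 423 and 455 CPM in Ctrl against 254 and 267 CPM in Rhox10 libraries. By gene, 0 of 8 tested were higher and 2 lower, yet their median was 0.26 on the log2 scale, opposite in sign to the sums. Over all times the Sertoli sums overlapped, at 191 to 455 CPM in Ctrl and 254 to 569 CPM in Rhox10 libraries. At 8 h endothelial markers summed to 40.5 and 49.4 CPM in Ctrl against 22.4 and 25.9 CPM in Rhox10 libraries. Germ cell markers then summed to 4133 and 4186 against 3428 and 3453 CPM. Stromal and peritubular markers summed to 1104 and 1156 CPM in Ctrl and 1172 and 1206 CPM in Rhox10 libraries at 8 h, and from 0 to 8 h 4 of 7 tested fell within Rhox10 cells (median -0.92) and 3 within Ctrl (median -0.54). Leydig and erythroid markers reached at most 17.1 and 2.31 CPM, and Amh, Hsd3b1, Insl3, Lhcgr and Hbb-bt were at 0 in all 24. The part of these cells in the results was not tested.

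In sorted germ cells, 5 of the 9 genes were higher in the libraries labelled Rhox10-null than in wild-type: Irf9, Irf2, Stat6, Irf1 and Stat3. None was lower by edgeR, DESeq2 or an unadjusted p under 0.05. Irf3, Irf5 and Stat2 did not pass the test, and Irf7 was too low for the fit across all genes. The differences were modest, from 0.37 to 0.69 on the log2 scale. This comparison uses other cells than the time course and addresses how germ cells sorted from mice labelled null differ from those of wild-type mice. The share of all 13538 tested genes that passed was 37.5%, and 18.6% passed as higher in null, so 5 of 8 tested genes stand in a comparison where many genes moved.

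**Figure D4:**
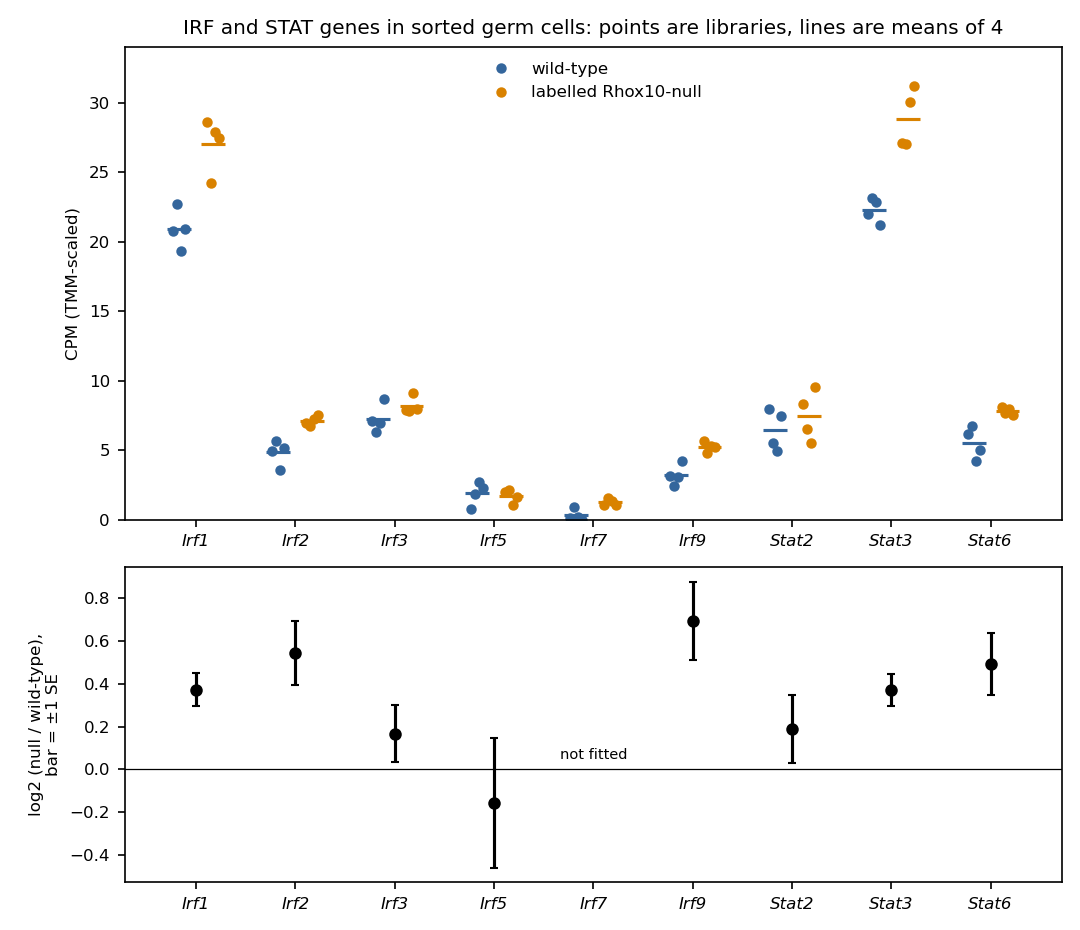
Top, level in CPM of the 9 genes in each RNA-seq library, with lines at the means of 4; bottom, log2 ratio of libraries labelled null to wild-type with bars of 1 standard error. The genotypes do not overlap for Irf1, Irf2, Irf7, Irf9, Stat3 and Stat6. The share of all genes without overlap was not counted, and 37.5% of all tested genes passed the test in this comparison.

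Per kilobase of exon, Irf1 was the most abundant of the 9 in wild-type germ cells, at 5.26 CPM per kb, above Stat3 at 2.34 and Irf3 at 2.11, whose ranges overlapped. Stat6 (1.26) and Stat2 (1.09 CPM per kb) overlapped, as did Stat2 and Irf5 (0.655 CPM per kb). Irf5, Irf2 (0.654) and Irf9 (0.597 CPM per kb) could not be ordered beyond their spread, and Irf7 was lowest at 0.0821 CPM per kb.

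Irf9 (ENSMUSG00000002325, GRCm38 chr14:55603571-55610030, plus strand) held 3.16, 2.45, 3.05 and 4.21 CPM in wild-type and 5.68, 4.77, 5.29 and 5.25 CPM in libraries labelled null. All 4 null libraries were above all 4 wild-type libraries. The log2 fold change was 0.69 ± 0.18 (SE; edgeR's quasi-likelihood test, adjusted p = 0.00258). Irf9 overlaps Rnf31 on the same strand over its first bases, where reads could belong to either.

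Irf2 (ENSMUSG00000031627, chr8:46739732-46847458, plus strand) held 4.96, 5.68, 3.56 and 5.16 CPM in wild-type and 6.99, 6.75, 7.21 and 7.54 CPM in null, again without overlap. Its log2 fold change was 0.54 ± 0.15 (SE; edgeR, adjusted p = 0.00407). Stat6 (ENSMUSG00000002147, chr10:127642986-127660957, plus strand) held 6.17, 6.75, 4.24 and 5.02 CPM in wild-type and 8.08, 7.68, 7.93 and 7.54 CPM in null. The null libraries lay closer together than the wild-type ones and all above them, with a log2 fold change of 0.49 ± 0.14 (SE; edgeR, adjusted p = 0.00645).

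Irf1 (ENSMUSG00000018899, chr11:53770014-53778374, plus strand) held 20.8, 22.7, 19.3 and 20.9 CPM in wild-type and 28.6, 24.2, 27.9 and 27.5 CPM in null. Its log2 fold change was 0.37 ± 0.08 (SE; edgeR, adjusted p = 0.000134). Stat3 (ENSMUSG00000004040, chr11:100885098-100939540, minus strand) held 22.0, 23.2, 22.9 and 21.2 CPM in wild-type and 27.1, 27.0, 30.0 and 31.2 CPM in null. Neither gene overlapped between genotypes, and Stat3 had the same fold change, 0.37 ± 0.07 (SE; edgeR, adjusted p = 8.37e-05). Stat3 meets Stat5a tail to tail on the other strand, and how the authors' counting used strand is not given in the sources used here.

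Irf7 (ENSMUSG00000025498, chr7:141262706-141266481, minus strand) had 1, 6, 1 and 0 counts in wild-type and 10, 12, 11 and 8 counts in libraries labelled null. The mean level was 0.310 ± 0.414 CPM (SD, n = 4) in wild-type, compared with 1.27 ± 0.241 CPM in null (SD, n = 4). All null libraries were higher, and the exact permutation test (two-sided) gave p = 0.0286, the smallest that 70 arrangements allow. Without the filter on low counts the log2 fold change was 2.01 ± 0.51 (SE; edgeR, adjusted p = 0.00126).

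The other 3 overlapped between genotypes. Stat2 (ENSMUSG00000040033, chr10:128270559-128292849, plus strand) held 7.97, 5.52, 4.92 and 7.46 CPM in wild-type and 8.3, 6.49, 5.53 and 9.55 CPM in null, a log2 fold change of 0.19 ± 0.16 (SE; edgeR, adjusted p = 0.369). Irf3 (ENSMUSG00000003184, chr7:44997648-45002848, plus strand) differed by 0.17 ± 0.13 (SE; edgeR, adjusted p = 0.342) and Irf5 (ENSMUSG00000029771, chr6:29526625-29541871, plus strand) by -0.16 ± 0.30 (SE; edgeR, adjusted p = 0.713). Stat2, the gene that differed most at 8 h in culture, was thus not shown to differ here.

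Marker RNA of several other cell types differed with genotype in these sorted libraries, and bulk data cannot tell fewer cells of a type from less RNA per cell. Beside the counts that follow, 18.6% of all genes were higher and 18.9% lower in null. The 22 germ cell markers summed to 436 to 451 CPM in wild-type and 231 to 239 CPM in null, with 0 of 20 tested higher and 18 lower (median -0.89 on the log2 scale). Of 12 tested macrophage and leukocyte markers 4 were higher and 0 lower (Cd68, Laptm5, Lyz2 and C1qa; median 0.43), with sums of 39.9 to 45.6 CPM against 54.6 to 60.4 CPM. Stromal and peritubular markers were higher for 7 of 8 (444 to 470 against 705 to 745 CPM), Leydig markers for 4 of 5 (34.2 to 36.0 against 46.3 to 56.1 CPM), endothelial markers for 3 of 5 (26.5 to 32.4 against 39.6 to 43.7 CPM) and erythroid markers for 6 of 6 (1.36 to 4.07 against 78.3 to 86.8 CPM). Sertoli markers were higher for 2 and lower for 2 of 8 (467 to 498 against 505 to 522 CPM). No list's marker was at 0 in all libraries, the median of the 8 tested IRF and STAT genes was 0.37 beside 0.003 over all genes, and the part of these cells in it was not tested.

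Scaling decides how many genes pass. Scaled to library totals the median of all genes moved to 0.35, with 7229 higher and 629 lower in place of 2518 and 2553, and Irf3 and Stat2 were called higher too. Scaled to the germ cell markers it moved to 0.83, with 11894 higher and 85 lower, and all 8 tested genes were called higher, Irf5 with a reversed sign. 

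Of all genes 18.6% were higher and 18.9% lower in null, and nothing is read from the counts of the pathway lists beside these shares. Of 17 receptors and Janus kinases 3 were higher and 1 lower (median 0.12 on the log2 scale, beside 0.003 over all genes). Il6st, the gp130 receptor upstream of STAT3, went from 47.6 ± 2.37 to 65.6 ± 3.98 CPM (SD, n = 4 each; log2 fold change 0.47, edgeR adjusted p = 9.89e-09), and the interferon receptor gene Ifnar2 from 3.46 ± 0.610 to 5.55 ± 0.818 CPM (SD, n = 4 each; 0.66, edgeR adjusted p = 0.00329). Lifr, the LIF receptor, was higher by 0.28 and Il13ra1 lower by 0.59 (log2 fold change -0.59). Socs3, the feedback inhibitor of STAT3 signalling, rose from 17.3 ± 2.48 to 28.6 ± 1.08 CPM (SD, n = 4 each; log2 fold change 0.72, edgeR adjusted p = 1.88e-09). Among 18 negative regulators 2 were higher and 2 lower in all (median 0.04).

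Of 16 tested STAT3 and STAT6 targets 4 were higher and 3 lower (median 0.14), among them Junb at 0.49, Ccl17 at 1.47 and Mcl1 at 0.21, and the cyclin Ccnd1 at -1.06 on the log2 scale. Of 13 genes that activate IRFs 4 were higher and 0 lower (median 0.15), with the kinase Ikbke at 0.92. Only 12 of 28 interferon targets passed the filter, and 3 of these were higher (the RNA sensor gene Ddx58 at 1.55, Nlrc5 at 1.47 and Tap1 at 0.91) and 0 lower (median 0.27).

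RHOX10 CUT&Tag peaks lay within 3 kb of the start of 2 of the 9 genes, Stat3 and Irf2, beside 19.8% of the 20642 genes tested in iSLAM-seq. Both were higher in libraries labelled null, as were Irf1, Irf9 and Stat6, which had no such peak. In culture at 8 h the log2 difference between the vectors was -0.08 ± 0.07 (SE) for Stat3 and -0.02 ± 0.14 for Irf2. A link between peaks and levels was not tested. The peak at Stat3 (mm10, the same assembly as GRCm38, chr11:100939378-100939900, 523 bases, annotated promoter by the authors, 99 bases before the start) had a score of 412, rank 502 of 5147 peaks. The peak at Irf2 (chr8:46739394-46739928, 535 bases, 84 bases before the start) had a score of 86.0, rank 3421, below the median of 127.5. Scores are the authors' own values per peak. For the other 7 genes the nearest peak was 7757 bases away (Stat2) to 352088 bases away (Stat6), and 12203 bases for Irf9 and 61461 for Irf7. Within 3 kb of a start, peaks were listed for 8 of 19 receptors and Janus kinases, 8 of 20 negative regulators, 4 of 15 activators of IRFs, 3 of 19 STAT3 and STAT6 targets and 2 of 28 interferon targets.

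The promoters of Stat3 and Irf2 are shown because RHOX10 peaks cover them. They run 5′ to 3′ on each gene's strand, from RefSeq (GRCm38.p6), at chr11:100939536-100939790 (minus strand) and chr8:46739495-46739744 (plus strand). Capitals mark matches to the ISRE core GAAANNGAA, the GAS core TTCNNNGAA and the homeobox core TAATTA, searched on both strands in 250 bases before to 50 after the start.

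Stat3: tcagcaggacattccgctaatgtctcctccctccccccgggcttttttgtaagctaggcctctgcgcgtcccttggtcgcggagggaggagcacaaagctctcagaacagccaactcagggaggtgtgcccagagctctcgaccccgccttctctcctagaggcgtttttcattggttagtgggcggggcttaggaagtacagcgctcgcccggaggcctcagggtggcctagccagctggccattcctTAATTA

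Irf2: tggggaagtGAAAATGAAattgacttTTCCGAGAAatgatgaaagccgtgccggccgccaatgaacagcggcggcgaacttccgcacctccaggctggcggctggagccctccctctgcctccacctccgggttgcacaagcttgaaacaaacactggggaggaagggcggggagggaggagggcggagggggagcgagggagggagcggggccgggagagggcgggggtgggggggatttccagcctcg

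In Stat3 the homeobox core TAATTA lies across the start, from base -1 to 5, with no base 0 counted. In Irf2 an ISRE core GAAAATGAA (-241 to -233) and a GAS core TTCCGAGAA (-224 to -216) lie within 26 bases of each other. Of 32851 promoters in the RefSeq table, 8.56% hold the ISRE core, 8.3% the GAS core and 5.29% the homeobox core, so such matches are common. A match says that the letters are there and no more.

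Among the 7 genes without a peak, Irf1 held a GAS core and Stat2 an ISRE core, and 80 bases around each are shown for comparison, with the match in capitals.

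Irf1 (chr11:53769889-53769968, plus strand): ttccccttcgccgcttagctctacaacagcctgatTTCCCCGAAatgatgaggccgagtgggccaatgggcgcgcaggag

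Stat2 (chr10:128270248-128270327, plus strand): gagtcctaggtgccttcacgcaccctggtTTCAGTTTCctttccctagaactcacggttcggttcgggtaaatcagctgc

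The GAS core of Irf1, TTCCCCGAA, lies at -90 to -82. In Stat2 the capitals, TTCAGTTTC at -221 to -213, are the ISRE core on the other strand. All 9 genes had promoter entries, and no core was matched in those of Irf3, Irf5, Irf7, Irf9 or Stat6, which says only that these letters are not in that window.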

How the data were processed

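The 9 genes, the pathway lists and the cell type markers were chosen with earlier results of these data known. RNA-seq and iSLAM-seq files hold whole-number read counts for each gene, as the authors deposited them and per the file headers. Submitters' processing notes name STAR 2.5.2b, Subread, featureCounts and DESeq2 with GRCm38 for RNA-seq, limma 3.42.2 with mm10 for iSLAM-seq, and Bowtie2 2.2.5, SAMtools and HOMER with mm10 for CUT&Tag. Whether all iSLAM-seq reads or only those with T-to-C conversions were counted, and the strand setting, are not given in the sources used here. Peak positions, genes and the score of each merged peak are as the authors deposited them. Control CUT&Tag signals were not used here, and 0 per-sample columns were left unmapped.

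Counts were tested with edgeR 4.0.16 (R 4.3.3, limma 3.58.1; TMM, filterByExpr, quasi-likelihood, Benjamini-Hochberg over all genes; threshold 0.05). RNA-seq was fitted with genotype, iSLAM-seq with 12 group means over 24 libraries. Standard errors are the absolute log2 fold change over the square root of F. CPM use TMM-scaled library sizes; likeness used log2(CPM + 0.5) of genes averaging at least 5 CPM. The 9 genes and Rhox10 were named in full; of each list up to 4 called genes of smallest p were named, with those a result turned on. C1qa, Cd68, Laptm5 and Lyz2 were named after their values were seen. The other genes of these 2 families are not reported here. The fits were tested on simulated data. Alternatives were DESeq2 1.42.0, other scalings and filters, a replicate block, left-out libraries, other peak distances and a score minimum.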

Additional observations from a re-analysis of the deposited data

Results flagged for a closer look

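Of 18 groups of 4 RNA-seq libraries examined (9 genes in 2 genotypes), 1 held a library far from the rest, where chance gives about 0.9. Irf3 in null replicate 3, at 9.13 CPM, stood above the other 3 null libraries (7.81 to 7.94 CPM), a gap of 0.905 of the group's range. Without that library the log2 fold change of Irf3 was still not past the threshold.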

How the results depend on the processing

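In RNA-seq, Irf1, Irf2, Irf9, Stat3 and Stat6 were the members called in every fit that left out 1 of the 8 libraries (5 to 5). In those fits 4468 to 4687 of all genes were called. Counts called became 8 with germ cell scaling, beside 11979 of 13538 genes, where Irf5 reversed to 0.67 (adjusted p = 0.0365, edgeR). They became 0 when a log2 fold change of at least 1 was also required, beside 446 of 13538 genes. Without the filter, and by DESeq2, Irf7 was added, making 6, beside 4871 and 3436 of 33689 genes. Replicate numbers did not pair libraries (correlations of deviations -0.019 to 0.014 in RNA-seq, mean 0.006 in iSLAM-seq). With the replicate block 5 members were called in RNA-seq, as without it, beside 5066 of 13538 genes. In iSLAM-seq the block left Irf9 no longer past the threshold at 0 h, as did library totals, no filter and DESeq2.

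In iSLAM-seq, counts describe genes chosen with the time course known, and the planned count of genes changing from 0 h over all later times was dropped for that reason. With 1 library left out, members past the threshold ran from 0 to 3 at 0 h, 0 to 4 at 0.5 h, 0 to 2 at 1 h, 1 to 2 at 2 h, 0 to 2 at 4 h and 3 to 4 at 8 h. Such fits assume that a lone library varies like the others, and those by time, unlike DESeq2 and the block, were chosen after seeing the data. With both Ctrl 0.5 h libraries removed, also chosen after seeing the data, Irf7 was added to Irf1 at 1 h and at 2 h. The change of Irf7's difference from 0 to 8 h (adjusted p = 0.0699) passed with library totals (0.0455), no filter (0.0267), only the 0 and 8 h libraries (0.0159), both Ctrl 0.5 h libraries removed (0.00646) and DESeq2 (0.04999). Without Ctrl replicate 1 or 2 of 0.5 h, 1355 or 1405 of all genes were called for that change, against 530. Peaks with a score at or above the median left 1 member, Stat3, beside 11.2% of genes. Low counts limit Irf7 (0 to 12 per library) and Irf5 (5 to 18) in RNA-seq. Protein comparisons were not run.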
